A study of Mus musculus with 15 samples.

Results

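The 10 genes examined here encode the contractile machinery of smooth muscle and the markers of pericytes, the mural cells of capillaries: Acta2, Tagln, Cnn1, Lmod1, Myh11, Myl9, Mylk, Des, Pdgfrb and Rgs5. They were taken as a named list, which was drawn up with earlier results of these data known. For each mouse the values of a gene's transcripts were summed as FPKM, fragments scaled to transcript length and library size. All 10 were listed among the 13929 genes with a named transcript in every file, and 8 of the 10 were among the 12364 genes that had at least 1 FPKM in at least 5 mice and were tested. Lmod1 reached 1 FPKM in 3 mice and Mylk in 4, and both failed this filter. The kidneys came from 15 wild-type (WT) male C57BL/6 mice, 8 weeks old at purchase, in 3 groups of 5. Control mice had 28 days of saline infusion, Ang II mice had angiotensin II, a vasoconstrictor peptide hormone, at 500 ng/kg/min for 28 days, and Ang II + QDG mice had the same infusion with Qingda granule (QDG), a Chinese herbal formula, at 1.145 g/kg/day by mouth. Control and Ang II mice were gavaged with water, so all mice carried a subcutaneous pump and were gavaged. The labels do not say which piece of each kidney was taken.

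Vascular smooth muscle contracts when myosin moves along actin filaments. A rise in cytosolic calcium activates myosin light chain kinase, which phosphorylates the regulatory light chain. Angiotensin II acts on vascular smooth muscle through this route. In kidney the genes mark artery and arteriole walls, mesangial cells and pericytes, and the smooth muscle around the renal pelvis. Their transcription is known to depend on serum response factor (SRF), which binds a sequence called the CArG box, and on its coactivator myocardin. In bulk kidney, more or fewer cells of a type and more or less RNA per cell cannot be told apart.

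Sequence is shown for the promoters of 2 abundant members and for an exon that only 1 of the 2 listed Myh11 transcripts has. Promoter sequence from RefSeq on GRCm38.p6 matched 7 of the 10 members, and Tagln, Myh11 and Pdgfrb had no entry. The 250 bases before the start of Myl9, the member with the smallest p in Ang II vs. Control, and of Acta2, the actin of smooth muscle, are shown 5′ to 3′ on the strand of the gene, with CArG boxes of at most 1 mismatch in capitals.
Myl9, chr2:156775214-156775463, plus strand: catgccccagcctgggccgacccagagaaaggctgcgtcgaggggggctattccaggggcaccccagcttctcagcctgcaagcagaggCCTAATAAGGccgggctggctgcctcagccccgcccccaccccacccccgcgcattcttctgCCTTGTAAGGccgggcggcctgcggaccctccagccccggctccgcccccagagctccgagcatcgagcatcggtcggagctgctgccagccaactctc
Acta2, chr19:34255374-34255623, minus strand: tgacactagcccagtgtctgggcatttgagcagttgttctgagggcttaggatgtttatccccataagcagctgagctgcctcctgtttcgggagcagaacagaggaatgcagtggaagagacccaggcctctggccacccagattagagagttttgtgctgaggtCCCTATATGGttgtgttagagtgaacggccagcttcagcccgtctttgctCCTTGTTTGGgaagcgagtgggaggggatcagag
Windows of 300 bases, 250 before and 50 after the start, were searched on both strands. An exact CArG box was found in 1 of the 7 member promoters, that of Myl9, with its first base 161 bases before the start, and in 1.63% of 32851 mouse promoters. Allowing 1 mismatch, which was decided after the sequences had been seen, gave 3 of 7 members, Myl9, Acta2 and Lmod1, and 21.1% of all promoters. The letters TGGGAA or TTCCCA, the core bound by the Notch effector RBPJ, were in the Acta2 window, where they overlap the second box in capitals, and in 25.6% of all promoters. The E-box, CANNTG, was in 6 of 7 member windows and in 72.3% of all. These matches describe the letters only.

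Myh11 (ENSMUST00000090287 and ENSMUST00000230397, chr16:14194535-14291372 on GRCm38), the smooth muscle myosin heavy chain, had 2 listed transcripts. The second has 1 short exon near the end of the coding sequence that the first lacks, and the first runs 365 bases further at its 3′ end and 9 bases further at its 5′ end. The exon has 39 bases on GRCm38 and is shown on the minus strand, that of the gene, with the stop codon that it brings in capitals. Heavy chains made with and without such an exon, known as SM2 and SM1, differ in the end of their tail.
Myh11 exon, chr16:14198050-14198088, minus strand: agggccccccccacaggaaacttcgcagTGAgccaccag

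**Figure D1:**
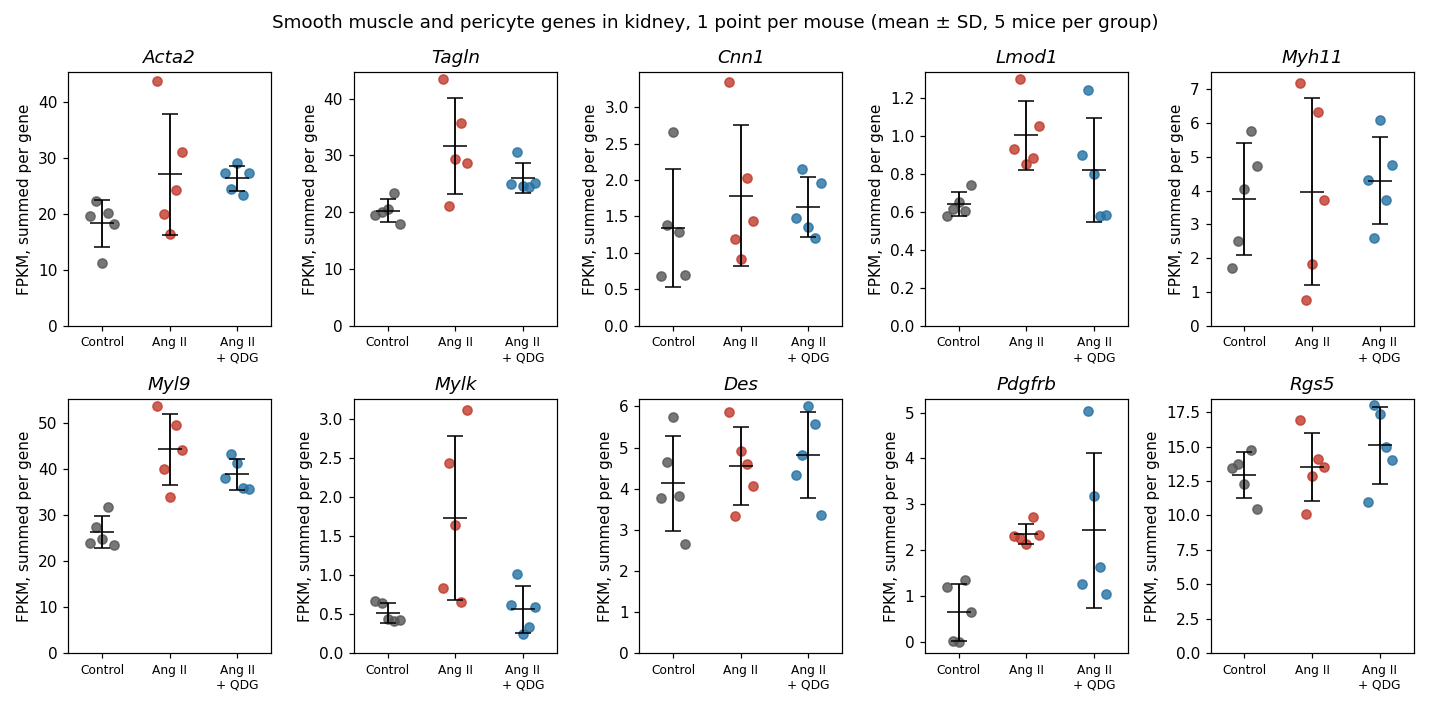
Summed FPKM of the 10 members (y axis, linear) in each mouse of the 3 groups, with the mean and SD of 5 mice as bars. The Ang II mice sit above every Control mouse for Myl9, Pdgfrb and Lmod1, and the groups overlap throughout for Cnn1, Myh11, Des and Rgs5.

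The question of Ang II vs. Control was which of these genes differed after 4 weeks of Ang II. In that comparison 3 of the 8 tested members were upregulated at an adjusted p under 0.05 (Myl9, Tagln and Pdgfrb) and 0 were downregulated, where 4.95% of all genes tested were called higher and 5.94% were called in either direction. The log2 fold change was positive for 7 of the 8 and for 64.8% of all genes, with a median of 0.37 against 0.083 over all genes. The test was limma's moderated test on log2(FPKM + 1) in 1 fit of 15 mice, with Benjamini-Hochberg adjustment over the 12364 genes. By the study's threshold, 2-fold or more at an unadjusted p under 0.05, 1 member (Pdgfrb) was called, against 1.05% of all genes, and 0 without Control mouse 2 or Control mouse 3. Without Ang II mouse 1, or without any 1 of Control mice 1, 3 and 5 and Ang II mice 3, 4 and 5, the count at the adjusted p was 1 (Myl9). Scaling mattered for the background, as the 612 higher and 123 lower genes of this comparison became 228 and 268 with quantile normalization and 201 and 269 with median scaling, and 1 member, Myl9, was called under each.

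For Ang II + QDG vs. Ang II, which asks whether QDG changed the levels seen under Ang II, the number of members called was 0 of 8 at the adjusted p and 0 of 8 by the study's threshold, where 1.81% and 0.801% of all genes were called. None of the 8 had an unadjusted p under 0.05 in limma's test, where 16.4% of all genes did. The median log2 fold change was 0.0013, and −0.018 over all genes. In the comparison of Ang II + QDG vs. Control, 0 members were called at the adjusted p and 1, Pdgfrb, by the study's threshold, beside 0.129% and 0.72% of all genes. The latter count was 0 without any 1 of Control mice 2 and 3 and Ang II + QDG mice 2 and 3. Here 4 members had an unadjusted p under 0.05 (14.4% of all genes did) and all 8 had a positive log2 fold change (as did 62.5% of all genes), with a median of 0.28 against 0.059 over all genes. The first and the second comparison share the 5 Ang II mice, so their values are set side by side only.

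**Figure D2:**
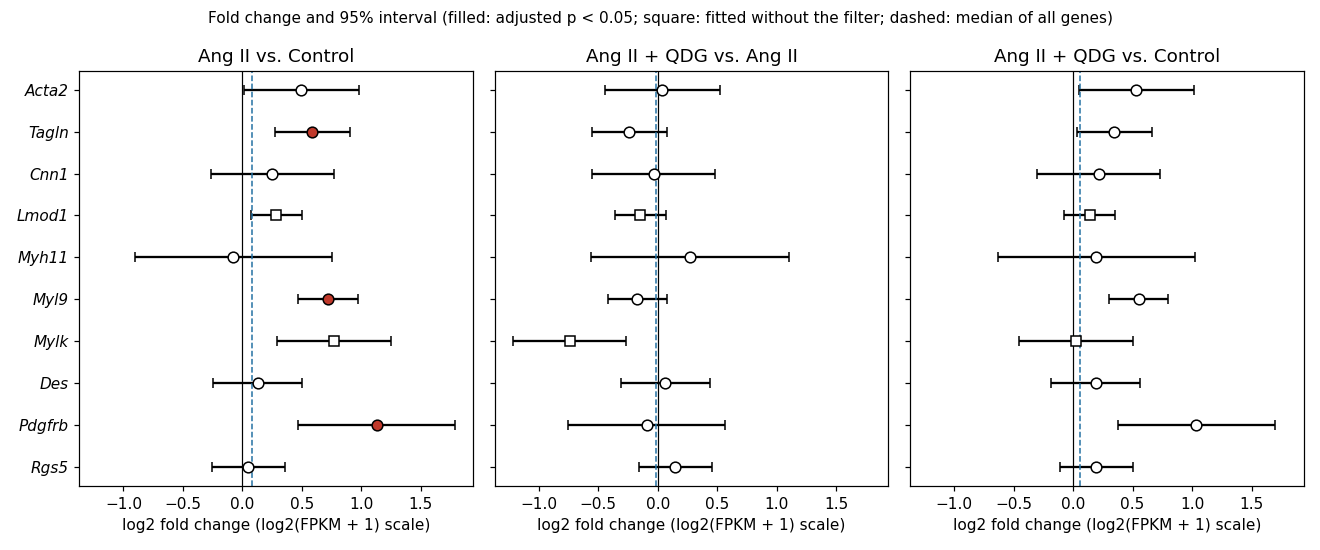
Log2 fold change (x axis, log2(FPKM + 1) scale) with its 95% interval for each member in the 3 comparisons, where filled points have an adjusted p under 0.05, squares are the 2 members fitted without the filter and the dashed line is the median of all genes. Filled points appear only for Ang II vs. Control, at Tagln (0.59), Myl9 (0.72) and Pdgfrb (1.13).

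Among the genes of the thin filament, Acta2 (ENSMUST00000039631, chr19:34241090-34255590 on GRCm38) encodes smooth muscle alpha actin, the most used marker of smooth muscle and of myofibroblasts. Acta2 had 19.6, 22.4, 11.2, 20.2 and 18.2 FPKM in the Control mice, 43.8, 19.97, 16.4, 24.4 and 31.1 FPKM in the Ang II mice, and 27.4, 24.6, 29.1, 23.5 and 27.4 FPKM in the Ang II + QDG mice. The Ang II mice were the most spread, with 3 of the 5 above every Control mouse, and all 5 Ang II + QDG mice were above every Control mouse. The means were 18.3 ± 4.24, 27.1 ± 10.8 and 26.4 ± 2.30 FPKM (SD, n = 5 each). The log2 fold change of Acta2 was 0.49 in Ang II vs. Control (standard error, SE, 0.23, adjusted p = 0.208 from limma) and 0.53 in Ang II + QDG vs. Control (adjusted p = 0.304), neither past the threshold. Between the infused groups it was 0.04, with a 95% interval from −0.45 to 0.52.

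Tagln (ENSMUST00000034590 and ENSMUST00000216035, chr9:45929619-45936058) encodes transgelin (SM22 alpha), an actin-binding protein that is an early marker of smooth muscle. Tagln had 19.5, 20.1, 20.5, 23.4 and 17.8 FPKM in Control, 43.4, 21.1, 29.3, 35.7 and 28.7 in Ang II, and 25.0, 30.7, 24.7, 24.5 and 25.1 FPKM in Ang II + QDG. Ang II mouse 2 was within the Control range and the other 4 were above it, while every Ang II + QDG mouse was above every Control mouse. It rose in Ang II vs. Control, from 20.3 ± 2.02 to 31.6 ± 8.38 FPKM (0.59 on the log2 scale, SE 0.15, adjusted p = 0.0325 from limma). Ang II + QDG mice averaged 26.0 ± 2.62 FPKM, a log2 fold change of −0.24 from Ang II (adjusted p = 0.449) and of 0.34 from Control (adjusted p = 0.305). The call in Ang II vs. Control was lost in 10 of 25 alternatives, with adjusted p from 0.0164 to 0.0801 over all 25, and without Ang II mouse 1, the highest, the log2 fold change was 0.46 (adjusted p = 0.0556).

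Cnn1, calponin, is an inhibitor of the myosin ATPase that marks mature smooth muscle. Cnn1 had 0.678 to 2.66 FPKM in Control, 0.918 to 3.34 in Ang II and 1.198 to 2.16 in Ang II + QDG. The groups overlapped, and 1 Ang II mouse, again mouse 1, was above the Control range. Its log2 fold change was 0.25 in Ang II vs. Control (adjusted p = 0.585 from limma) and −0.03 with QDG against Ang II alone (adjusted p = 0.964).

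Lmod1, leiomodin 1, nucleates actin filaments in smooth muscle. Lmod1 had 0.581, 0.617, 0.652, 0.607 and 0.744 FPKM in Control, 0.933, 1.30, 0.855, 0.885 and 1.05 in Ang II, and 0.898, 1.24, 0.801, 0.578 and 0.582 FPKM in Ang II + QDG. Every Ang II mouse was above every Control mouse, although the levels were low, from 160 to 407 fragments per mouse as implied by the values. Fitted without the filter, Lmod1 had a log2 fold change of 0.29 (SE 0.10, adjusted p = 0.112 from limma) in Ang II vs. Control and −0.15 (adjusted p = 0.522) with QDG against Ang II alone, and neither passed the test. The pseudocount of 1 lowers the fold changes of genes at this level, and the means of 0.640 ± 0.0633 and 1.00 ± 0.181 FPKM differ by a ratio of 1.57.

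Groups that did not overlap were counted over the 8 tested members. Every Ang II mouse was above every Control mouse for 2 of them, Myl9 and Pdgfrb, and for 6.49% of all genes tested. Of these 2, Pdgfrb passed the filter through the infused groups. Every Ang II + QDG mouse was above every Control mouse for 3, Acta2, Tagln and Myl9, and for 2.78% of all genes.

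The next members belong to the thick filament and its regulation. Myl9 (ENSMUST00000088552 and ENSMUST00000132985, chr2:156775420-156781658) encodes the regulatory light chain of smooth muscle myosin, the substrate of myosin light chain kinase. Myl9 had 23.9, 27.4, 24.7, 31.8 and 23.4 FPKM in Control, 53.6, 40.0, 33.9, 49.4 and 44.1 in Ang II, and 38.0, 43.2, 41.3, 35.9 and 35.5 FPKM in Ang II + QDG. Both infused groups lay wholly above the Control mice and overlapped each other. The means were 26.3 ± 3.44, 44.2 ± 7.75 and 38.8 ± 3.38 FPKM (SD, n = 5 each). Myl9 rose in Ang II vs. Control with a log2 fold change of 0.72 (SE 0.12, adjusted p = 0.00728 from limma), and 2.85% of all genes had a higher one. The call held in all 25 alternatives, with adjusted p from 0.00491 to 0.0266. With QDG against Ang II alone the log2 fold change of Myl9 was −0.17 (95% interval −0.42 to 0.08, adjusted p = 0.509), whereas against Control it was 0.55 (adjusted p = 0.0774). Fitted as single transcripts, of which 28812 were tested, the protein coding transcript of Myl9 passed the test in Ang II vs. Control (log2 fold change 0.72, adjusted p = 0.021 from limma), whereas those of Tagln (adjusted p = 0.0815) and Pdgfrb (adjusted p = 0.0996) did not.

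Myh11 is the most specific of the smooth muscle markers. Myh11 had 1.71, 2.5005, 4.04, 5.77 and 4.72 FPKM in Control, 7.19, 0.773, 1.84, 6.31 and 3.72 in Ang II, and 4.31, 2.59, 6.09, 3.71 and 4.74 FPKM in Ang II + QDG. The Ang II group held both the highest and the lowest mouse, so the groups overlapped wholly. The means were 3.75 ± 1.65, 3.97 ± 2.77 and 4.29 ± 1.29 FPKM, and the log2 fold change was −0.08 in Ang II vs. Control (95% interval −0.91 to 0.75, adjusted p = 0.934 from limma) and 0.27 with QDG against Ang II alone (adjusted p = 0.788). The ratio of the Ang II and Control means, 1.06, has the other sign from the log2 fold change.

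The Myh11 transcript with the short exon shown above made up 4.51% to 84.0% of the Myh11 FPKM in Control mice (median 77.3%), 4.50% to 78.3% in Ang II (median 54.6%) and 9.95% to 96.7% in Ang II + QDG (median 76.9%). It was under 10% in 4 mice, at least 1 of each group, and over 90% in 2 mice, both Ang II + QDG. The share varied more widely within each group than between the group medians. As single transcripts, the form with the exon had a log2 fold change of −0.30 (adjusted p = 0.862 from limma) and the form without it 0.29 (adjusted p = 0.778) in Ang II vs. Control. The files give the estimate for each transcript but not the reads across the exon, and the 2 also differ at both ends, so the share need not rest on the exon.

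**Figure D3:**
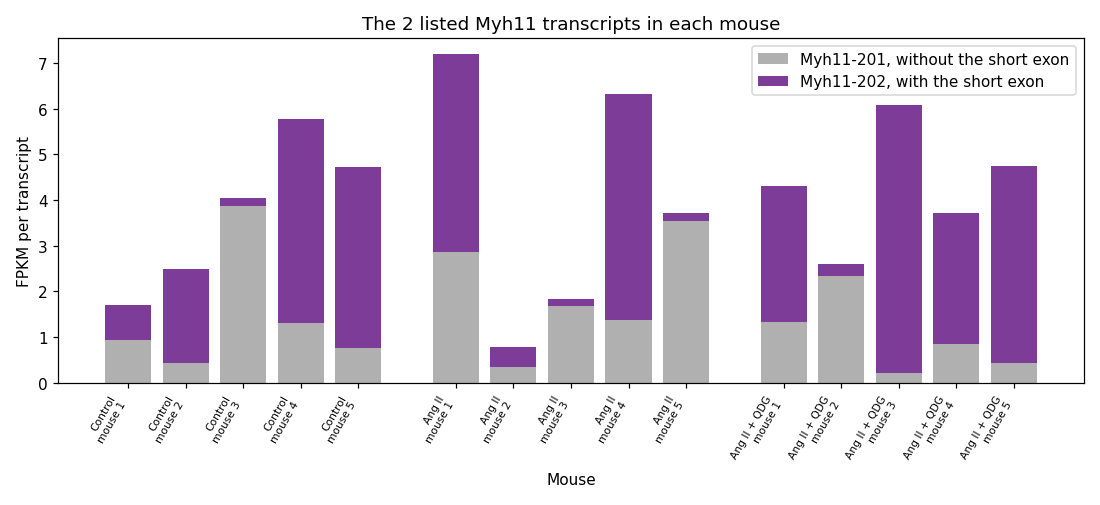
FPKM of the Myh11 transcript without (grey) and with (purple) the short exon, stacked on a linear axis for each of the 15 mice. The share of the purple part runs from 4.50% in Ang II mouse 5 to 96.7% in Ang II + QDG mouse 3, and each group holds at least 1 mouse under 10%.

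Mylk encodes myosin light chain kinase, the calmodulin-dependent enzyme that starts contraction. The only Mylk transcript used here (ENSMUST00000155268, chr16:34745210-34877836) is annotated as a retained intron and not as protein coding, so its level is not that of the kinase mRNA. The labels name rRNA depletion and the methods of the study also a poly(A) isolation kit, and how this bears on a retained-intron transcript was not tested. Mylk had 0.664, 0.648, 0.442, 0.412 and 0.418 FPKM in Control, 0.828, 2.44, 1.65, 0.648 and 3.11 in Ang II, and 0.616, 1.02, 0.250, 0.334 and 0.589 FPKM in Ang II + QDG. In the Ang II group 4 of the 5 mice were above every Control mouse, and 4 of the 5 Ang II + QDG mice were below every Ang II mouse. Fitted without the filter, Mylk had a log2 fold change of 0.77 (SE 0.22, adjusted p = 0.0622 from limma) in Ang II vs. Control and −0.74 (adjusted p = 0.113) with QDG against Ang II alone. Neither passed the test. Without Ang II mouse 1 or Ang II mouse 4 the adjusted p in Ang II vs. Control was 0.0456 and 0.0301, with every listed transcript it was 0.0465, and with a pelvis and ureter covariate 0.0316. Mylk had 1 listed transcript, present in every file, so its own values were unchanged with every listed transcript. Over 23 alternatives the log2 fold change of Mylk was 0.60 to 1.52, highest with a pseudocount of 0.01, and its adjusted p was 0.0301 to 0.135. The transcript rested on 53 to 737 implied fragments per mouse.

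Des encodes desmin, the intermediate filament protein of muscle cells, which mesangial cells and pericytes also carry and injured podocytes gain. Des had 2.66 to 5.75 FPKM in Control (median 3.81), 3.32 to 5.87 in Ang II (median 4.61) and 3.35 to 6.01 in Ang II + QDG (median 4.82). The 3 ranges covered nearly the same span. Its log2 fold change was 0.13 in Ang II vs. Control (95% interval −0.25 to 0.50, adjusted p = 0.719 from limma) and 0.06 with QDG against Ang II alone (adjusted p = 0.899).

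The last 2 members act in signalling. Pdgfrb is the receptor through which the growth factor PDGF-B of endothelial cells recruits pericytes and mesangial cells. Pdgfrb had 1.19, 0.00227, 0, 1.34 and 0.639 FPKM in Control, 2.31, 2.26, 2.12, 2.72 and 2.33 in Ang II, and 1.25, 5.04, 3.19, 1.62 and 1.04 FPKM in Ang II + QDG. The 5 Ang II mice were close to each other and above every Control mouse, and the Ang II + QDG mice spread on both sides of them, 2 above and 3 below. Control mouse 3 is listed at 0 and Control mouse 2 at the value of 1 implied fragment, where the other mice had at least 266. Whether fragments of Pdgfrb in these mice were assigned to assembled transcripts with no gene name, which were left out, was not tested. Pdgfrb rose in Ang II vs. Control with a log2 fold change of 1.13 (SE 0.31, adjusted p = 0.0467 from limma). Only 2 Control mice reached 1 FPKM, so the gene passed the filter through the infused groups, where it was higher. Without Control mouse 2 the log2 fold change was 0.97 (adjusted p = 0.0812) and without Control mouse 3 it was 0.97 (adjusted p = 0.108), and over 25 alternatives the call was lost in 17. In Ang II + QDG vs. Control it was 1.04 (unadjusted p = 0.0046, adjusted p = 0.154), and with QDG against Ang II alone −0.09 (95% interval −0.75 to 0.57, adjusted p = 0.924).

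Rgs5 speeds the shut-off of G protein signals, the Ang II receptor among them, and is a widely used pericyte marker. Rgs5 had 10.4 to 14.8 FPKM in Control (median 13.5), 10.1 to 17.0 in Ang II (median 13.5) and 10.98 to 18.05 in Ang II + QDG (median 14.999). The log2 fold change was 0.05 in Ang II vs. Control (95% interval −0.26 to 0.36, adjusted p = 0.88 from limma) and 0.15 with QDG against Ang II alone (adjusted p = 0.662). It was below 0 in Ang II vs. Control with quantile normalization and with median scaling.

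Set side by side per length, the mean FPKM in Control was highest for Myl9 (26.3), Tagln (20.3), Acta2 (18.3) and Rgs5 (12.9), and the other 6 members were between 0.517 (Mylk) and 4.13 (Des). The ranges of mean ± SD overlapped for Tagln and Acta2, for Acta2 and Rgs5 and for Des and Myh11, but not for Myl9 and Tagln. The labelled tissue was checked on 6 kidney epithelial markers, among them Slc34a1, Umod and Aqp2, whose sum was 3292 to 4229 FPKM over the mice. Total fragments implied by the values were 68928800 to 81322200 per mouse.

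Deviations of the members from their group means were compared across the 15 mice, by Pearson's r and Spearman's rho with permutation within groups, for 45 pairs. Of these, 29 had a positive r, and the median was 0.26 (range −0.68 to 0.75). The highest was that of Tagln and Rgs5 (r = 0.754, permutation p = 0.00234, adjusted p = 0.105; rho = 0.654, permutation p = 0.0132, adjusted p = 0.119), with r = 0.573 without the 2 mice farthest from the median of Tagln. No pair passed the adjusted p of 0.05 by r, and 2 did by rho, Tagln with Cnn1 (rho = 0.786, permutation p = 0.00159, adjusted p = 0.0358; r = 0.663, permutation p = 0.0191, adjusted p = 0.253) and Myl9 with Rgs5 (rho = 0.768, permutation p = 0.00142, adjusted p = 0.0358; r = 0.640, permutation p = 0.0161, adjusted p = 0.253). Leaving out 2 mice in the same way gave r = 0.554 for the first and r = 0.665 for the second. Each pair is measured in the same libraries.

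As a description, the tested genes outside the list whose level over the 15 mice was most like the mean standardised level of the members were Pycard (r = 0.926), Atp2a3 (0.916), Ak1 (0.906), Cox7a1 (0.898), Fbxo44 (0.882), Sparcl1 (0.871), Tpm2 (0.870), Flna (0.866), Col15a1 (0.864) and Asap1 (0.860). These r include the difference between groups, and the points share libraries and depth. Tpm2 is a muscle tropomyosin, Flna crosslinks actin, and Sparcl1 and Col15a1 encode extracellular matrix proteins.

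Other genes of the same machinery were taken from 4 lists. Their calls are those of the main fit and were not followed through the other scalings or mice left out. Of 24 tested genes of the contractile apparatus, 6 were upregulated and 0 downregulated in Ang II vs. Control (median log2 fold change 0.28, 0.083 over all genes), where 4.95% of all genes were called higher. Flna, filamin A, had 8.42 to 12.8 FPKM in Control, 17.6 to 23.3 in Ang II and 13.5 to 18.4 in Ang II + QDG, so that the 3 ranges did not overlap except between the infused groups. Its log2 fold change was 0.91 in Ang II vs. Control (SE 0.12, adjusted p = 0.00392 from limma) and −0.36 with QDG against Ang II alone (adjusted p = 0.134). Csrp1, a LIM protein of smooth muscle, rose from 28.1 ± 6.39 to 48.8 ± 5.68 FPKM (0.80 on the log2 scale, adjusted p = 0.00742) and was at 34.6 ± 3.53 FPKM with QDG (−0.48 from Ang II, adjusted p = 0.0811). The other 4 were Actn1 (alpha-actinin, 0.50), Tpm1 (tropomyosin, 0.48), Vcl (vinculin, 0.42) and Myl6 (the essential light chain, 0.40), with adjusted p from 0.00977 to 0.0487. None of the 24 was called with QDG against Ang II alone, where 6 had an unadjusted p under 0.05 in limma's test, beside 16.4% of all genes, and the median was −0.10.

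Calcium and other signalling to contraction had 2 of 26 tested genes upregulated in Ang II vs. Control, near the 4.95% of all genes called higher (median log2 fold change 0.12, 0.083 over all genes). Tbxa2r, the thromboxane receptor, rose from 1.66 ± 0.342 to 2.87 ± 0.517 FPKM (0.54 on the log2 scale, adjusted p = 0.0174 from limma) and had 2.89 ± 0.271 FPKM with QDG. Arhgef1, a guanine nucleotide exchange factor downstream of the Ang II receptor, rose from 10.2 ± 1.58 to 14.1 ± 2.03 FPKM (0.42, adjusted p = 0.0282) and had 14.0 ± 0.691 FPKM with QDG. With QDG against Ang II alone 1 gene of the 26 was called, beside 1.81% of all genes, namely Avpr1a, a vasopressin receptor, which fell from 3.85 ± 1.01 to 2.09 ± 0.328 FPKM (−0.63 on the log2 scale, adjusted p = 0.0292) and had 3.39 ± 0.354 FPKM in Control.

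Among 16 tested transcription factors and cofactors of smooth muscle genes, 2 were upregulated in Ang II vs. Control, beside 4.95% of all genes (median log2 fold change 0.16, 0.083 over all genes). Tgfb1i1 (Hic-5), a focal adhesion protein and coactivator, had 0.875 to 2.16 FPKM in Control, 1.56 to 5.89 in Ang II and 2.20 to 4.06 in Ang II + QDG. Its log2 fold change was 1.15 (adjusted p = 0.0184 from limma), and −0.37 (adjusted p = 0.503) with QDG against Ang II alone. Tbx2, a T-box repressor, rose from 17.5 ± 1.97 to 26.5 ± 5.21 FPKM (0.56, adjusted p = 0.0444) and had 18.8 ± 3.45 FPKM with QDG (−0.47 from Ang II, adjusted p = 0.127). Srf itself had 7.18 ± 0.645, 8.54 ± 0.744 and 7.11 ± 0.305 FPKM, with adjusted p of 0.0866 and 0.120 in the same 2 comparisons. With QDG against Ang II alone 0 of the 16 were called by limma and 2 had an unadjusted p under 0.05. Of 17 tested pericyte and PDGF genes 0 were called in Ang II vs. Control by limma and 5 had an unadjusted p under 0.05, with a median log2 fold change of 0.25, and with QDG against Ang II alone these counts were 0 and 4. Over all genes 22.8% and 16.4% had such a p in the 2 comparisons. Pdgfc, a PDGF ligand, had a log2 fold change of −0.47 (adjusted p = 0.0898) and Angpt1, the pericyte ligand of the endothelial receptor Tie2, 0.94 (adjusted p = 0.0922).

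**Figure D4:**
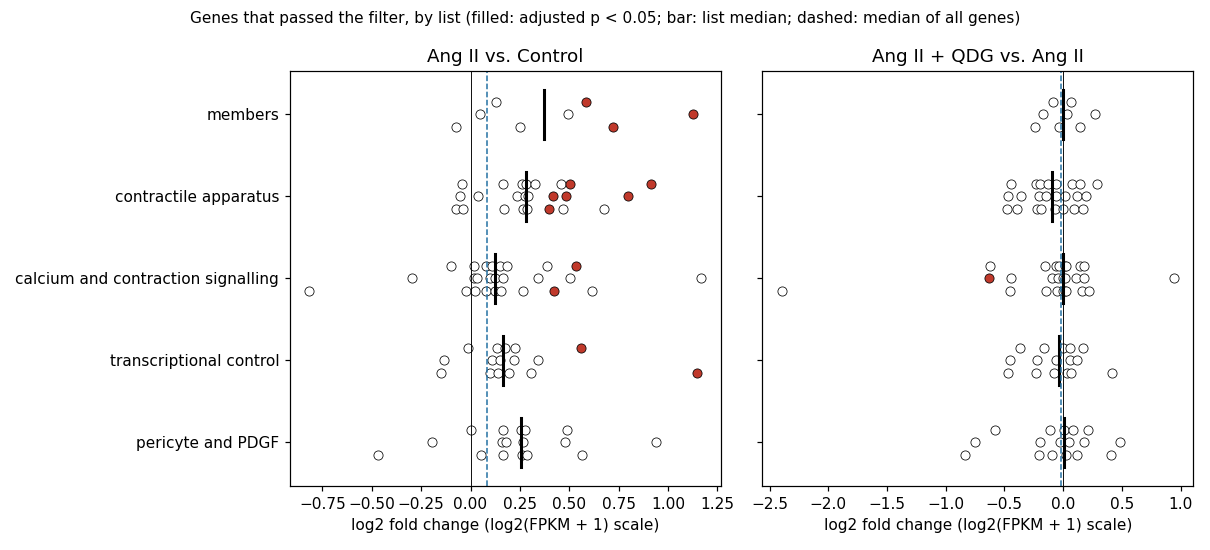
Log2 fold change (x axis, log2(FPKM + 1) scale, with its own range in each panel) of every tested gene of the members and of 4 lists, in Ang II vs. Control (left) and with QDG against Ang II alone (right), with filled points at an adjusted p under 0.05, bars at list medians and a dashed line at the median of all genes. Filled points number 3, 6, 2, 2 and 0 from top to bottom on the left and 1 in all on the right.

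Markers of other tissues that a piece of kidney can hold were read beside the members. Of 10 genes of the renal pelvis and ureter lining 7 were listed, with sums of 1.55 to 28.3 FPKM in Control, 1.31 to 52.4 in Ang II and 1.85 to 40.7 in Ang II + QDG, and Upk1a, Krt20 and Foxa1 were not listed. None of the 7 was called by limma in any of the 3 comparisons, and 0 had a raw p under 0.05. Ang II mouse 1, the highest of its group for 7 members (Acta2, Tagln, Cnn1, Myh11, Myl9, Des and Rgs5), also had the highest pelvis and ureter sum of all mice (52.4 FPKM) and the highest sum of 5 listed adipose genes (293 FPKM, 26.3 to 173 in the others). Within groups the summed members and the pelvis and ureter sum had r = 0.684 (permutation p = 0.0205, adjusted p = 0.123 over 6 marker sums) and rho = 0.571 (permutation p = 0.0566, adjusted p = 0.206), and r = 0.589 without the 2 mice farthest from the median. For the visceral smooth muscle, elastic artery, endothelial, fibroblast and adipose sums r was 0.359 to 0.647, with adjusted p from 0.153 to 0.210 by permutation, rho was 0.314 to 0.521 (adjusted p from 0.206 to 0.322), and r without 2 mice in the same way was 0.0152 to 0.623. With the pelvis and ureter sum as a covariate, which was chosen after seeing the data, the log2 fold change in Ang II vs. Control was 0.69 for Myl9 (adjusted p = 0.00602 from limma), 0.55 for Tagln (adjusted p = 0.0222), 0.44 for Acta2 (adjusted p = 0.196), 1.12 for Pdgfrb (adjusted p = 0.0548) and, without the filter, 0.82 for Mylk (adjusted p = 0.0316). Of 5 visceral smooth muscle genes only Actg2 was listed, at 0 to 4.96 FPKM, highest in Control mouse 3, and of 10 skeletal muscle genes 0 were listed.

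**Figure D5:**
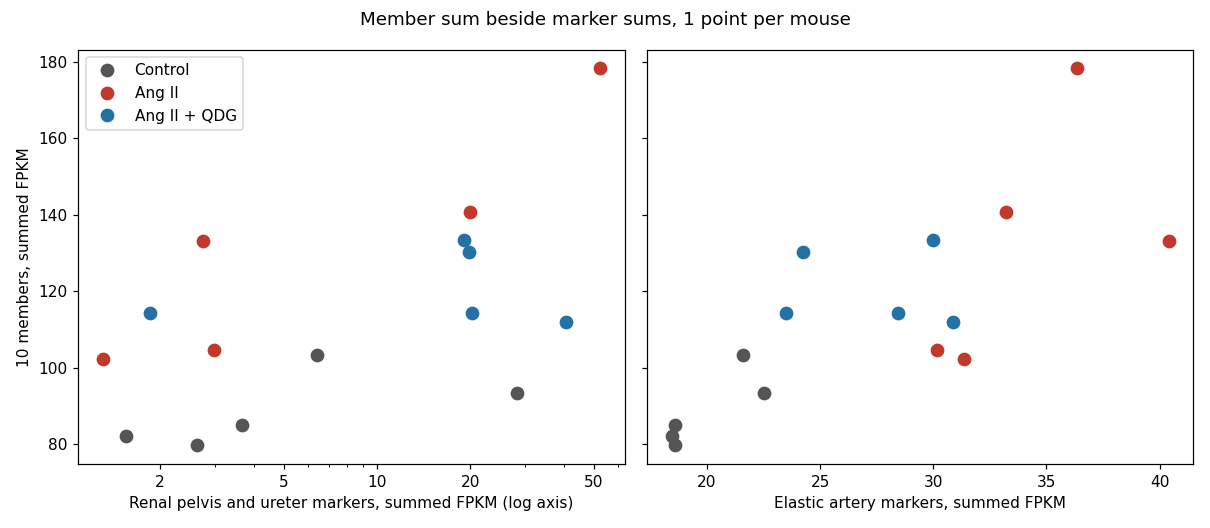
Summed FPKM of the 10 members (y axis) in each mouse against the summed FPKM of 7 renal pelvis and ureter markers (left, log axis) and of 5 elastic artery markers (right, linear axis), by group. Ang II mouse 1 is at the top of both panels, with 178 FPKM for the members, and on the right the 5 Control mice, at 18.4 to 22.5 FPKM, lie left of all infused mice.

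Of 4 tested elastic artery genes 2 were upregulated in Ang II vs. Control, beside 4.95% of all genes. The sum of 5 (Eln, Fbln5, Mfap4, Ltbp4 and Gja4) was 18.4 to 22.5 FPKM in Control, 30.2 to 40.4 in Ang II and 23.5 to 30.9 in Ang II + QDG. Eln, elastin, rose from 2.003 ± 0.603 to 5.27 ± 1.39 FPKM in Ang II vs. Control (1.06 on the log2 scale, adjusted p = 0.0111 from limma) and Ltbp4, which organises elastic fibres, from 8.01 ± 0.887 to 13.3 ± 2.62 FPKM (0.65, adjusted p = 0.00822). Upregulated in the same comparison were 3 of 10 endothelial genes (Tie1, Egfl7 and Ehd3), against 0 of 7 fibroblast, 0 of 3 leukocyte, 0 of 4 adipose and 0 of 6 kidney epithelial genes by limma, of which 1, 0, 0 and 2 had an unadjusted p under 0.05. Over all genes 4.95% were called higher and 22.8% had such a p. Of 2 renin cell genes, Akr1b7 fell, from 1.56 ± 0.340 to 0.906 ± 0.209 FPKM (−0.42, adjusted p = 0.0463 from limma). Over all 12364 genes, 123 were called lower in that comparison. Akr1b7 was higher with QDG than with Ang II alone (0.62, adjusted p = 0.0222). The other gene, Ren1, had a Control mean of 33.2 FPKM and was called in neither comparison. Its log2 fold change was −0.18 in Ang II vs. Control (adjusted p = 0.719 from limma). With QDG against Ang II alone it was −0.09 (adjusted p = 0.898). Star was the 1 adrenal gene tested, and it was not called. The part of the vessel, pelvis and other tissue in each piece of kidney in the values of the members was not tested.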

How the data were processed

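Kidneys of 15 mice, 5 per group, were profiled by RNA-seq of total RNA, depleted of rRNA per the labels. The methods of the study also name a poly(A) isolation kit. The authors deposited 1 file per mouse with 1 value per transcript on mm10 (the same assembly as GRCm38), and the processing notes of the labels name limma. The aligner, assembler and quantifier are not given in the sources used here. The deposited values were taken as FPKM, since multiplying by transcript length (GENCODE release 21, mouse) and dividing by 1 factor for each mouse gave whole numbers, within 0.02, for 98.3% to 98.5% of values under 200 fragments. Totals implied by that factor were 68928800 to 81322200 fragments, so that 1 FPKM on a 1 kb transcript is 68.9 to 81.3 fragments. A transcript is in a file only if 1 of 2 group means reaches 0.5 FPKM, and 11141 of the 40054 transcripts shared by all files are assembled ones with no gene name and were left out. Of 31301 Ensembl transcript identifiers, 31254 matched GENCODE.

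FPKM were summed per gene over annotated transcripts in all 15 files. Genes that reached 1 FPKM in 5 or more mice were tested with limma 3.58.1 in R 4.3.3 (lmFit and eBayes with trend, two-sided) on log2(FPKM + 1), in 1 fit of 15 mice with 12 residual degrees of freedom, and p-values were adjusted by Benjamini-Hochberg. Fold changes are on the log2(FPKM + 1) scale, which understates changes of low genes. The fit was tested on simulated data. Correlations used 100000 permutations within groups, two-sided. CArG boxes, RBPJ motifs and E-boxes were counted in RefSeq promoter windows. The members and the gene lists were chosen with earlier results of these data known, and support nothing by themselves. The rule for named genes took all members, from each list the genes at an adjusted p under 0.05 in Ang II vs. Control or Ang II + QDG vs. Ang II and the 3 of smallest p in each, and, over all genes, the 10 most like the members by Pearson's r. List genes that were not called are mostly given as counts. Calls of list and marker genes outside the members were not followed through the alternatives. The alternatives were other pseudocounts, scalings, filters, transcript sets, samples and variance models, and each mouse left out. The labels number no replicates and give no batch. The result of 1 marker list is not reported here.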

Additional observations from a re-analysis of the deposited data

Results flagged for a closer look

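Of the 30 sets of 5 values that the 10 members have in the 3 groups, 1 held a mouse far from the others. Tagln was at 30.7 FPKM in Ang II + QDG mouse 2, and the next highest mouse of that group was at 25.1 FPKM, a gap of 0.900 of the range of the group (the limit for 5 values is 0.71). Chance gives a gap above that limit in about 1 in 20 sets, and 30 sets were examined. Without this mouse the other 4 mice of the group were still above every Control mouse for Tagln.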

How the results depend on the processing

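Over 25 alternatives each, Myl9 kept its call in Ang II vs. Control in all 25, Tagln in 15 and Pdgfrb in 8. The number of members called at the adjusted p in that comparison was 3, and 1 with quantile normalization or median scaling, and 1 to 3 with 1 mouse left out. By the study's threshold 0 to 1 were called with 1 mouse left out. Between the infused groups it was 0 in all 25 by both rules. In Ang II + QDG vs. Control it was 0 to 1 by each rule with 1 mouse left out, and 0 by the study's threshold with either scaling. The log2 fold change of Pdgfrb in Ang II vs. Control was 2.52 with a pseudocount of 0.1 (adjusted p = 0.0602 from limma) and 3.82 with 0.01 (adjusted p = 0.0956). The causes of these changes were not tested.
The genes called in Ang II vs. Control numbered 735, and 470 with median scaling, 408 with protein coding transcripts, 457 with the 2 groups only and 337 to 798 with 1 mouse left out, and by the study's threshold 130, and 308 and 315 with pseudocounts of 0.1 and 0.01. Between the infused groups they numbered 224, and 58 with the 2 groups only, 134 with the pelvis and ureter covariate and 53 to 254 with 1 mouse left out, and by the study's threshold 99, and 198 and 202 with the lower pseudocounts. In Ang II + QDG vs. Control they numbered 16, and 80 with every listed transcript, 6 with protein coding transcripts, 4 with the 2 groups only and 0 to 110 with 1 mouse left out, and by the study's threshold 89, and 206 and 215 with the lower pseudocounts.
Values that changed sign had an adjusted p of at least 0.734 after the change. With quantile normalization and median scaling Rgs5 in Ang II vs. Control was at −0.0413 and −0.0405, and Mylk in Ang II + QDG vs. Control at −0.0429 and −0.0624 (−0.0143 with a pseudocount of 0.01). With the covariate Acta2 and Des between the infused groups were at −0.0888 and −0.0062, and Myh11 in Ang II + QDG vs. Control at −0.0376. With 1 mouse left out, Myh11 ranged from −0.311 to 0.241 and Rgs5 from −0.0319 to 0.141 in Ang II vs. Control. Between the infused groups Acta2 ranged from −0.116 to 0.225, Cnn1 from −0.153 to 0.142, Myh11 from −0.0446 to 0.507, Des from −0.0219 to 0.164 and Pdgfrb from −0.327 to 0.0649, and in Ang II + QDG vs. Control Mylk from −0.0723 to 0.1001. The mice were separate animals divided at random into the groups, so there was no pairing to use. The labels give no replicate numbers, and the mouse numbers used here follow the order of the samples. Lmod1 rested on 160 to 407 implied fragments per mouse and Mylk on 53 to 737, and how these numbers bear on the spread of the values was not tested.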
